A study of Mus musculus with 45 samples.

Results

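The genes described here are 43 lysosomal genes of the mouse. They were taken as a named list and not by a cut on their measured values, but with earlier results of these data known. The list comprises 12 cathepsins and other proteases, 6 membrane and sterol-export proteins, 7 glycosidases, 3 genes for saposins, acid ceramidase and progranulin, the transcription factors Tfeb and Tfe3, 5 genes of the V0 sector and 6 of the V1 sector of the proton pump, and 2 genes for accessory pump proteins. All 43 were rows of the deposited table of 23594 gene rows, and all 43 were among the 8937 genes that passed the filter on low values. The study sorted 3 kinds of mononuclear phagocyte from the lungs of C57BL/6J mice and sequenced their polyA RNA by a low-input Smart-seq2 method. The cells were alveolar macrophages (AM), which live in the air spaces, interstitial macrophages (IM), which live in the tissue around them, and inflammatory monocytes (iMo), which enter from the blood. Lipopolysaccharide (LPS), a component of the outer membrane of Gram-negative bacteria that is sensed by Toll-like receptor 4, was given by the intraperitoneal (ip) route, and cells were taken at 2h, 6h and 20h. Untreated cells (0h) and the ip groups make up 27 libraries in 12 groups: 4 AM libraries at 0h, 3 AM libraries at 6h, and 2 libraries in each of the other 10 groups. No genetic change is named in the labels, and the sources used here give no dose, sex or age. Values are TPM, a measure of transcript abundance scaled by transcript length, so that levels of different genes can be compared.

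Lysosomes are acidic organelles in which proteases of the cathepsin family, glycosidases and lipid hydrolases break down material taken up by phagocytosis, endocytosis and autophagy. A proton pump, the V-ATPase, acidifies them: its membrane sector V0 carries the protons and its cytosolic sector V1 hydrolyses ATP. The related factors TFEB and TFE3 bind a palindromic E-box and activate many lysosomal genes, and alveolar macrophages are known for the constant clearance of surfactant, inhaled particles and dying cells.

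Each library's title carries a number, called the title code here because the labels do not say what it marks. Code R, of titles ending in A171227 to D171227, held all IM and iMo libraries at 0h and 3 of the 4 AM libraries at 0h. The ip libraries had code P (titles ending in ip160623) or code Q (titles ending in A161219 or B161219). A library of code P is called library P, and the others are called by the end of their title. In IM and iMo the code and the treatment therefore changed together, and the 2 cannot be told apart except through AM library P at 0h, titled AM_LPS00h_160623. The ribosomal RNA gene Rn45s alone took 4.33% to 33.3% of the summed TPM of a library, and libraries of one group correlated at 0.895 to 0.977 over the genes tested. Summed markers of each cell type checked the sort. The 8 AM markers summed to 1005 to 3290 TPM in AM and to at most 118 TPM in IM and 40.0 TPM in iMo. The 8 IM markers summed to 4013 to 4685 TPM in IM at 0h, to only 119 to 272 TPM at 2h and 6h, and to 1729 to 1846 TPM at 20h. The 10 neutrophil markers summed to 11176 to 56844 TPM in IM, against 24.7 to 442 TPM in AM and 135 to 3059 TPM in iMo, so the IM libraries went against their label in part. The 6 endothelial markers summed to 513 to 683 TPM in IM at 0h and to at most 39.7 TPM in IM after LPS. The 6 epithelial markers summed to 342 to 678 TPM in IM at 0h and to at most 57.5 TPM after LPS. The 6 monocyte markers summed to 2172 to 12586 TPM in iMo and to 1916 to 6081 TPM in IM, so these ranges overlapped. In iMo the IM markers summed to at most 124 TPM up to 6h and to 1541 to 1699 TPM at 20h. No AM marker was at 0 in any IM or iMo group, and of the neutrophil markers only Camp was at 0 in IM, at 0h. The part of these other cells in the results was not tested, and in bulk samples fewer cells of a type and less RNA per cell cannot be told apart.

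Promoter windows of 36 of the 43 genes were found in RefSeq (build GRCm38.p6, the assembly behind mm10), covering 250 bases before to 50 after the gene start. The 8-letter palindrome TCACGTGA, the core of the element bound by TFEB and TFE3, was searched on both strands. It stood in 8 of the 36 windows (22.2%), those of Atp6v0d1, Atp6v0e, Atp6v1a, Cln3, Ctsa, Ctsd, Gla and Mcoln1, against 1.12% of the windows of 27025 gene symbols. The shorter E-box CACGTG, which every TCACGTGA also holds, stood in 15 windows (41.7%) against 8.09% of all. A variant with 1 changed base, TCATGTGA, stood in 5 (13.9%), those of Atp6v0c, Ctss, Gla, Grn and Tpp1, against 1.15% of all. A match describes letters in a window and no binding was measured. Atp6v0e, called lower in IM than in AM after LPS, is not printed below, and neither is a further TCACGTGA in each of the windows of Ctsa and Gla. The stretches around the palindrome are printed for 5 of these 8 genes, each called in at least 1 comparison, with the 8 letters in capitals, 5′ to 3′ on the strand of the gene, to show the letters they share.
Ctsd, chr7:142387903-142387942, minus strand: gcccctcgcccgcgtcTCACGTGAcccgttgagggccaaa
Mcoln1, chr8:3500457-3500496, plus strand: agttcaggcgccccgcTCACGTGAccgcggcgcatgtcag
Ctsa, chr2:164833749-164833778, plus strand: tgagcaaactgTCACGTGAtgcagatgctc
Gla, chrX:134601177-134601216, minus strand: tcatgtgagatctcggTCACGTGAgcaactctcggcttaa
Atp6v0d1, chr8:105566050-105566079, minus strand: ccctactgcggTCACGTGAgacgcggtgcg

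AM libraries devoted more of their transcript pool to the 43 genes than the other cells did. Without Rn45s and the abundant row Lars2, the genes together took 3.18% to 6.91% of the summed TPM in the 11 AM libraries (median 3.52%), 0.943% to 2.08% in the 8 IM libraries (median 1.83%) and 1.54% to 2.22% in the 8 iMo libraries (median 1.87%). The AM range lay wholly above the other 2, whose ranges overlapped. Its upper end was AM library A161219 at 20h, and no other AM library was above 3.92%. Ctsd, the aspartic protease cathepsin D, and Ctss, the cysteine protease cathepsin S that trims the invariant chain of MHC class II, made up 40.9% to 53.1% of the genes' TPM in AM, 21.1% to 37.7% in IM and 17.0% to 33.9% in iMo. With both left out, the remaining 41 genes still took 1.61% to 4.08% in AM, 0.744% to 1.53% in IM and 1.14% to 1.81% in iMo. The highest iMo libraries then reached into the AM range, while the IM range stayed below it. The 4.08% was again AM library A161219 at 20h, and no other AM library was above 2.05%. The 13 pump genes took 0.453% to 0.651% in AM, 0.164% to 0.344% in IM and 0.252% to 0.393% in iMo, with AM above both. At the other end of the scale Ctsf, Gla, Glb1 (acid β-galactosidase) and Mcoln1 (the calcium channel TRPML1) averaged 5.85, 6.13, 10.4 and 13.5 TPM over all 27 libraries, against 1737 TPM for Ctsd and 1500 TPM for Ctss.

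The most abundant members of the other roles overlapped between cell types. Lamp1, a heavily glycosylated protein of the lysosomal membrane, measured 228 to 681 TPM in AM (median 406), 77.1 to 349 TPM in IM (median 249) and 171 to 468 TPM in iMo (median 261). Psap measured 431 to 1893 TPM in AM (median 766), 319 to 906 TPM in IM (median 615) and 291 to 1410 TPM in iMo (median 867). For Psap the iMo median was the highest of the 3.

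Atp6v0b measured 217 to 715 TPM in AM (median 324), 71.3 to 389 TPM in IM (median 234) and 141 to 497 TPM in iMo (median 200.5). Atp6v1e1, in the stalk of V1, measured 109 to 297 TPM in AM (median 168), 78.6 to 185 TPM in IM (median 126) and 87.7 to 191 TPM in iMo (median 125). Atp6ap1 measured 78.9 to 156 TPM in AM (median 107), 24.7 to 105 TPM in IM (median 58.7) and 42.0 to 88.3 TPM in iMo (median 66.1). All 3 ranges overlapped between AM and each other cell type, with the AM median the highest.

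**Figure D1:**
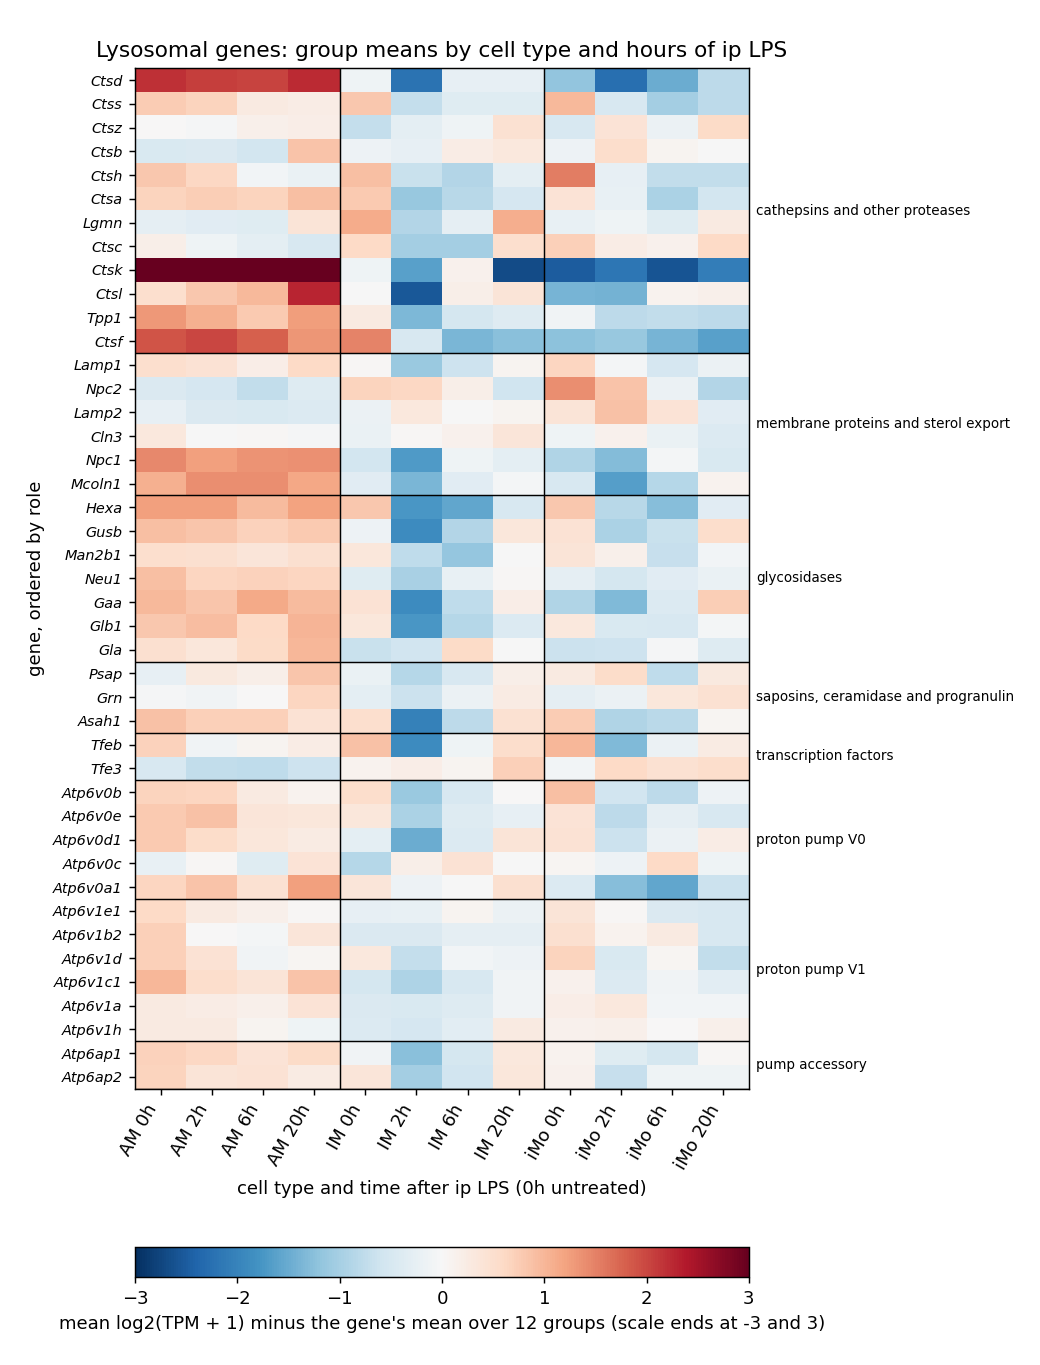
Group means of log2(TPM + 1) for the 43 genes (rows, by role) in the 12 groups (columns), each shown as its difference from the gene's mean over the 12 groups, red above and blue below. Ctsk, Ctsd and Ctsf stand out in red in the AM columns, and the IM 2h column holds many of the bluest cells among the glycosidases and proteases.

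Before LPS, the lysosomal genes that differed between cell types were mostly lower in IM and iMo than in AM, and the proteases Ctsk and Ctsd led them. In IM, 9 of 43 were lower and 1 higher than in AM, where 11.0% of all genes tested were lower and 15.0% higher (limma on log2(TPM + 1), Benjamini-Hochberg adjusted p under 0.05). In iMo, 10 were lower and 1 higher, beside 13.4% and 16.2% of all genes. The share of these genes called lower was 20.9% in IM and 23.3% in iMo, above the background, and the share called higher was below it. Their median difference was -0.48 for IM and -0.26 for iMo, and 0.00 and 0.15 for all genes.

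Cathepsin K (Ctsk), a collagen-degrading cysteine protease, measured 305, 268, 226 and 154 TPM in the 4 AM libraries at 0h, 12.1 and 13.04 TPM in IM, and 2.34 and 1.12 TPM in iMo. The 3 groups did not overlap. Its log2 difference from AM was -4.10 (SE 0.67, adjusted p = 3.33e-05) in IM and -6.45 (SE 0.67, adjusted p = 4.29e-08) in iMo. Ctsd measured 4164, 3560, 5461 and 1914 TPM in AM, 796 and 613 TPM in IM, and 374 and 309 TPM in iMo. Every AM library lay above every IM library, including the AM library of code P, which was the lowest of the 4. The log2 difference was -2.33 (SE 0.52, adjusted p = 0.00123) in IM and -3.37 (SE 0.52, adjusted p = 1.73e-05) in iMo. Of the annotated exon bases of Ctsd, 34.4% are shared with the same-strand gene model Gm49369, and how such reads were counted is not stated.

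The 2 proteins that hand cholesterol out of the lysosome went opposite ways. Npc1, the membrane transporter, measured 23.8, 39.5, 40.0 and 31.6 TPM in AM at 0h, 6.75 and 8.37 TPM in IM, and 6.27 and 5.11 TPM in iMo. Npc2, the soluble carrier that passes cholesterol to it, measured 149, 106, 118 and 83.3 TPM in AM, 223 and 261 TPM in IM, and 371 and 422 TPM in iMo. For neither gene did AM overlap IM or iMo. Npc1 was lower by -1.997 (SE 0.32, adjusted p = 2.67e-05) in IM and -2.35 (SE 0.32, adjusted p = 2.66e-06) in iMo on the log2 scale. Npc2 was higher by 1.11 (SE 0.33, adjusted p = 0.0139) in IM and 1.82 (SE 0.33, adjusted p = 0.000135) in iMo.

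Cathepsin F (Ctsf) and acid α-glucosidase (Gaa), which degrades lysosomal glycogen, set iMo apart from both macrophages. Ctsf measured 10.96, 12.7, 17.9 and 9.43 TPM in AM at 0h and 9.70 and 8.68 TPM in IM, but 0.626 and 0.451 TPM in iMo. Gaa measured 21.8, 22.8, 28.1 and 19.6 TPM in AM, 18.3 and 13.1 TPM in IM, and 5.37 and 5.74 TPM in iMo. These were the 2 genes lower in iMo than in IM, with log2 differences of -2.73 (SE 0.36, adjusted p = 1.15e-05) and -1.33 (SE 0.36, adjusted p = 0.0224), and none was higher. Of all genes, 6.32% were lower and 0.739% higher in that comparison, so 2 of 43 was no more than the background.

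Mcoln1 measured 15.4, 23.3, 22.8 and 22.5 TPM in AM, 6.89 and 7.38 TPM in IM, and 8.02 and 5.11 TPM in iMo, with AM above both. Other genes below the AM level in IM were Mcoln1 (-1.42), the sialidase Neu1 (-1.27), the α-galactosidase Gla (-1.14), the tripeptidyl peptidase Tpp1 (-1.05) and the V1 genes Atp6v1c1 (-1.52) and Atp6v1b2 (-1.15), with adjusted p from 0.00223 to 0.0411. In iMo the further genes were Gaa (-1.87), Ctsf (-3.13), Mcoln1 (-1.55), Tpp1 (-1.41), Neu1 (-1.17), Gla (-1.13) and the V0 gene Atp6v0a1 (-1.07). Tfeb and Tfe3 passed the test in neither. Tfeb measured 45.8, 43.2, 48.5 and 26.2 TPM in AM, 50.5 and 41.4 TPM in IM and 52.8 and 46.0 TPM in iMo, overlapping throughout. Its log2 difference from AM was 0.19 in IM and 0.30 in iMo. Tfe3 measured 13.2, 18.1, 17.2 and 10.9 TPM in AM, 22.3 and 22.5 TPM in IM, and 22.6 and 16.8 TPM in iMo (0.59 and 0.40, adjusted p of 0.186 and 0.367). Between iMo and IM they differed by 0.11 and -0.19 (adjusted p of 0.944 and 0.844).

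The counts at 0h depended on single libraries and on scaling. For IM against AM the count fell from 10 to 4 without IM library A171227 and to 5 without IM library B171227. It rose to 18 within title code R, to 19 with the title code as a covariate, to 22 after quantile normalization and to 21 after rescaling without Rn45s and Lars2. For iMo against AM the last 2 settings gave 24 and 25. For iMo against IM, 1 gene was called when IM library A171227, iMo library A171227 or iMo library B171227 was left out. Shares of all genes called in these settings are not given here.

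**Figure D2:**
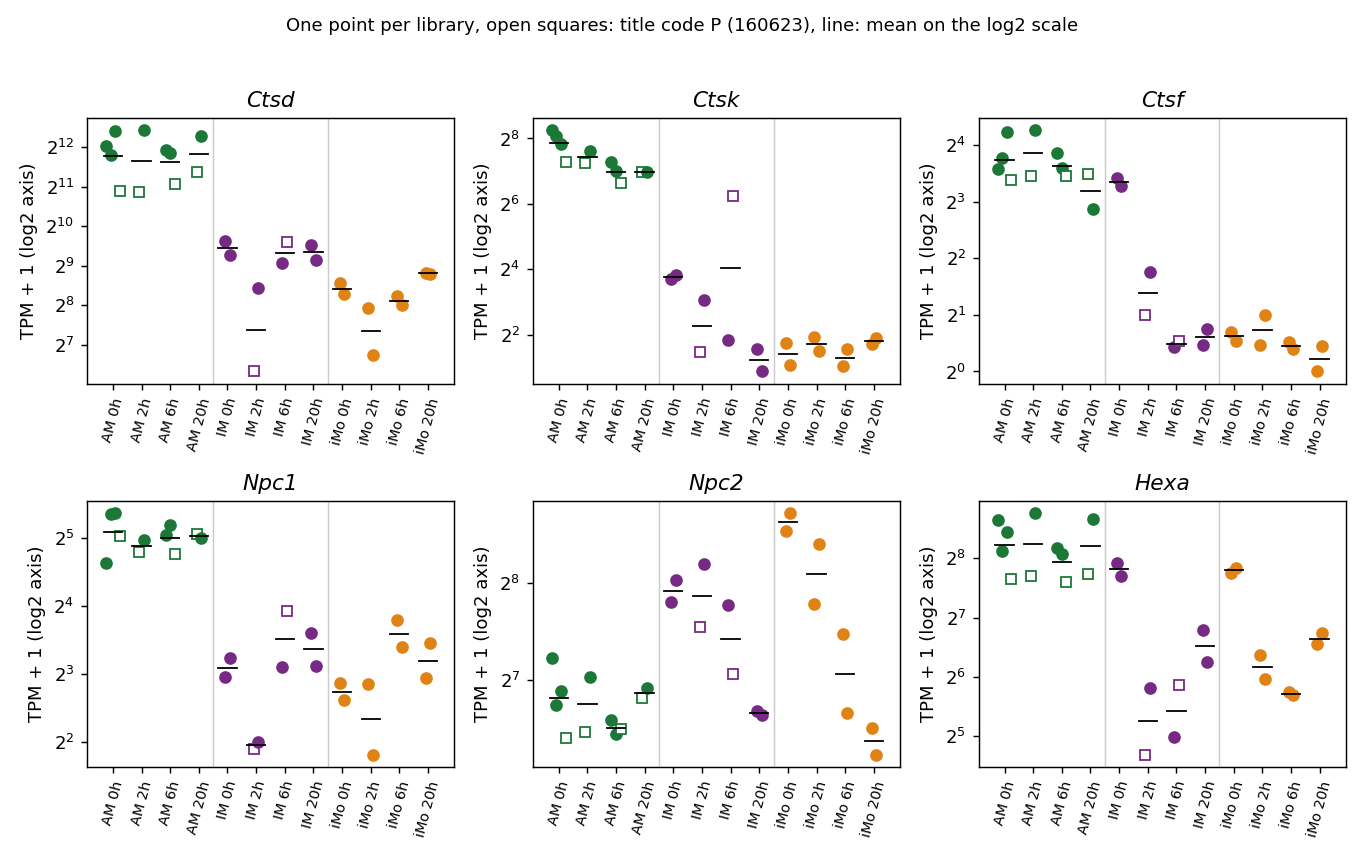
TPM + 1 (log2 axis) of Ctsd, Ctsk, Ctsf, Npc1, Npc2 and Hexa, 1 point per library and 12 groups per panel, with open squares for title code P and a line at the mean on the log2 scale. Ctsd, Ctsk and Npc1 lie higher in AM at every time, Ctsf starts at the AM level in IM and drops to the iMo level by 6h, and Npc2 starts high in IM and iMo and is lowest in both at 20h.

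After LPS the distance between AM and the other cells covered most of the list. Averaged over 2h, 6h and 20h, 28 of 43 genes were lower and 2 higher in IM than in AM, beside 36.6% and 17.5% of all genes tested. In iMo 23 were lower and 2 higher, beside 27.6% and 18.3%. The members' shares called lower were 65.1% and 53.5%. Their median difference was -0.86 in IM and -0.69 in iMo, against -0.30 and -0.10 for all genes. The AM libraries enter both comparisons, so the 2 sets of values are not independent. Averaging over times gives smaller errors than at 0h (Ctsa in IM, SE 0.21 against 0.33), so these counts do not show a wider distance than at 0h. Relative to the median of all genes, the members' median was -0.56 in IM and -0.60 in iMo, beside -0.48 and -0.41 at 0h. The F test of the response itself called 6 and 3 of 43, beside 26.5% and 17.3% of all genes.

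By role, all 7 glycosidases were lower in both cells, as were 8 of 12 proteases in each. Among glycosidases in IM the differences ran from -0.64 for Gla to -2.39 (SE 0.26, adjusted p = 2.58e-08) for Hexa, the α-subunit of β-hexosaminidase, which degrades GM2 ganglioside. Hexa ranged over 193 to 432 TPM in the 11 AM libraries, over 24.8 to 241 TPM in IM and over 50.6 to 227 TPM in iMo, and only the untreated IM and iMo libraries lay above 193 TPM. Ctsk (-4.62 in IM, -5.52 in iMo), Ctsd (-3.02 and -3.62) and Ctsf (-2.74 and -3.10) had the widest gaps over these times, with adjusted p of at most 6.01e-08. The proteases that passed the test in neither comparison were Ctsb, Ctsc, Ctsz and Lgmn (legumain, which cleaves after asparagine and matures other cathepsins). Ctsb, cathepsin B, ranged over 165 to 391 TPM in the IM libraries and 240 to 415 TPM in the iMo libraries, and 10 of the 11 AM libraries lay between 148 and 293 TPM.

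Calls among the pump genes were mixed. Of the V0 genes, 4 of 5 were lower in IM and 3 of 5 in iMo, and of the V1 genes 2 of 6 and 1 of 6 were lower. No test compared the sectors. In IM at 0h the V1 genes Atp6v1c1 and Atp6v1b2 were the only pump genes called lower than in AM. Atp6v0b, a proteolipid of the membrane ring and the most abundant pump gene, differed by -0.86 (SE 0.30, adjusted p = 0.0164) in IM and -0.84 (SE 0.30, adjusted p = 0.0224) in iMo. Atp6v0a1, one of several interchangeable a-subunits of the proton path, differed by -0.74 in IM and by -2.01 (SE 0.25, adjusted p = 4.19e-07) in iMo. It was also lower in iMo than in IM (-1.27, SE 0.26, adjusted p = 0.00225). It measured 9.06, 1.46, 4.45, 2.13, 5.93 and 7.53 TPM in the 6 iMo libraries after LPS and between 9.15 and 17.7 TPM in the 6 IM libraries, with no overlap. Atp6v0c, the other ring proteolipid, passed the test in neither cell (0.17 and 0.08), and 2 processed pseudogene copies could share its reads. The accessory protein Atp6ap1 was lower in both cells (-1.02 and -0.82), with adjusted p of 0.000271 and 0.00262.

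Of the 2 factors, Tfe3 was higher than in AM in both cells, by 1.04 (SE 0.20, adjusted p = 0.00012) in IM and 1.23 (SE 0.20, adjusted p = 1.7e-05) in iMo. It ranged over 9.48 to 15.8 TPM in the 7 AM libraries after LPS, over 17.3 to 37.3 TPM in the 6 IM libraries and over 25.1 to 38.0 TPM in the 6 iMo libraries, so that neither overlapped AM. Tfeb passed the test in neither (-0.56, adjusted p = 0.0976, and -0.48, adjusted p = 0.176). Npc2 was higher in IM (0.61, SE 0.22, adjusted p = 0.0195) but not at 20h alone, where its difference turned to -0.20. Lamp2, a major protein of the lysosomal membrane, was higher in iMo (0.76, SE 0.29, adjusted p = 0.0345).

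Between iMo and IM after LPS, Tfeb and Tfe3 differed by 0.08 and 0.19, 1 gene was lower (Atp6v0a1) and 1 higher (Glb1, 0.67, SE 0.21, adjusted p = 0.042), beside 4.91% and 4.22% of all genes. After rescaling without Rn45s and Lars2 the split was 1 lower and 12 higher. With 1 library left out, 1 gene was called for IM libraries P at 2h and A161219 at 20h and for 5 of the iMo libraries: A161219 at 2h, both at 6h and both at 20h. The lower counts against AM were 27 of 43 for IM and 31 of 43 for iMo within title code Q. At 20h alone they were 9 and 10. The shares of all genes called in these settings are not given here, so these counts are not read as results about the list.

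**Figure D3:**
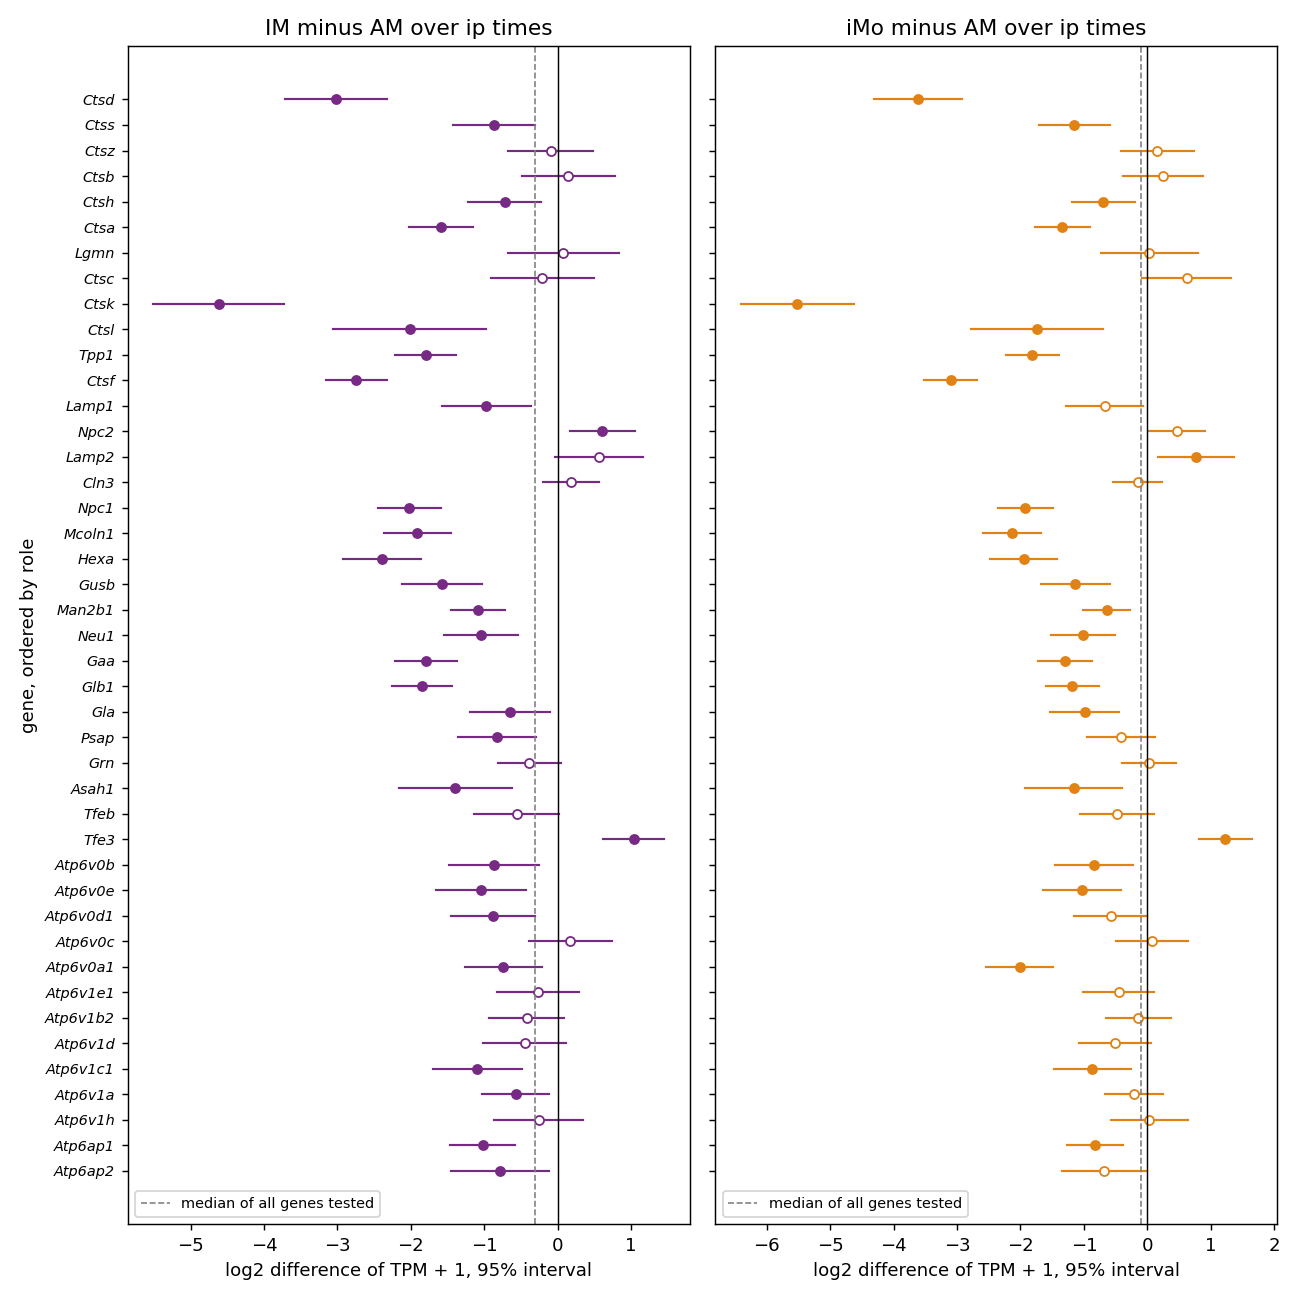
Log2 difference of TPM + 1 from AM, averaged over 2h, 6h and 20h after ip LPS, for IM (left) and iMo (right), with 95% intervals, filled points for adjusted p under 0.05 and a dashed line at the median of all genes tested. All 7 glycosidases lie left of 0 in both panels, and Tfe3 lies to the right of 0 in both.

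**Figure D4:**
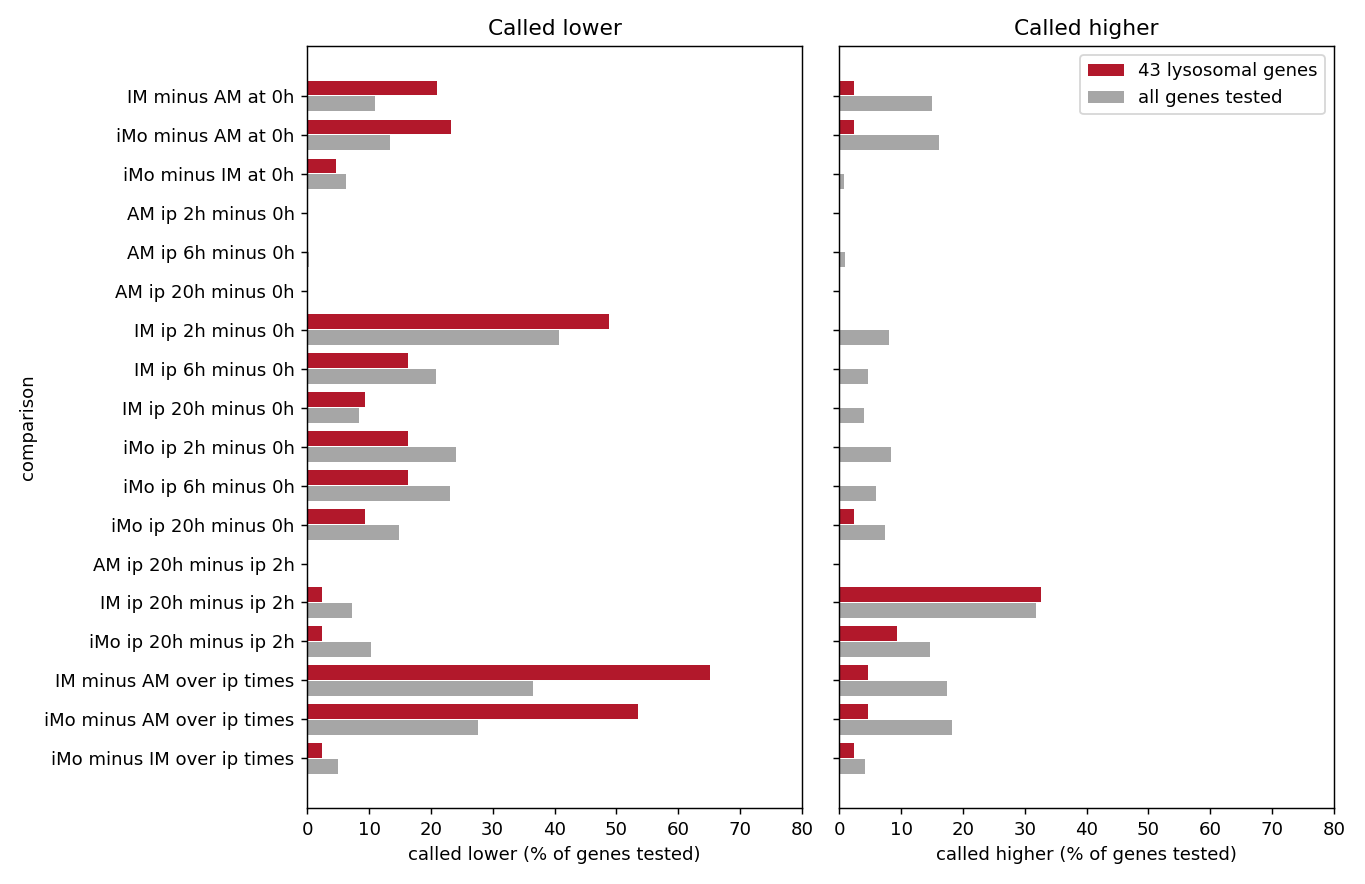
Percentage of the 43 genes (red) and of all 8937 genes tested (grey) called lower (left) or higher (right) in each of 18 comparisons. Red exceeds grey by most for the lower calls of IM and iMo against AM after LPS, and is below grey for the higher calls in both.

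In AM, LPS moved none of the 43 genes past the test. At 2h 0 were called, beside 0.134% of all genes higher and 0% lower. At 6h 0 were called, beside 0.929% and 0.369%, and at 20h 0, beside 0.0448% and 0.0671%. Without adjustment, limma gave p under 0.05 for 0, 3 and 5 of the genes. The member with the most negative or positive change at each time was Tfeb at 2h (-0.79, 95% interval -1.69 to 0.10, adjusted p = 1), Ctsh at 6h (-0.90, -1.57 to -0.23, adjusted p = 0.264) and Ctsl at 20h (1.79, 0.18 to 3.40, adjusted p = 0.524). These intervals do not show the genes to be constant. Tfeb measured 16.04 and 31.6 TPM at 2h, 27.2, 31.7 and 19.8 TPM at 6h, and 25.2 and 32.2 TPM at 20h, and at each time library P lay below all 0h libraries while the others lay within their range. Its changes at 6h and 20h were -0.61 and -0.47. Tfe3 changed by -0.27, -0.28 and -0.13 with adjusted p of at least 0.778.

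The title code moved with several of the genes in AM. The libraries of code P held Ctsd at 1914, 1875, 2155 and 2651 TPM at 0h, 2h, 6h and 20h, and the 7 other AM libraries held it at 3560 to 5559 TPM. Ctss, in the same order, measured 1299, 1343, 1094 and 1369 TPM in the code P libraries and 1512 to 3543 TPM in the others. Rn45s took 30.4%, 28.7%, 30.8% and 14.8% of the summed TPM in these code P libraries and 6.5% to 23.8% in the others. Without Rn45s and Lars2 the 43 genes took 3.40%, 3.21%, 3.18% and 3.33% in code P, still below the 3.43% to 6.91% of the others. The part of this scaling in the lower Ctsd and Ctss values was not tested. Within code P, with 1 library at each time and no test, no member moved by more than 1 on the log2 scale. The extremes were -0.68 for Tfeb at 2h, -0.90 for Atp6v0a1 at 6h and 0.96 for Asah1 (acid ceramidase) at 20h. Members' medians were 0.01, -0.05 and 0.31, and those of all genes 0.04, 0.09 and 0.27.

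The AM library A161219 at 20h held some lysosomal transcripts far above every other AM library. Cathepsin L (Ctsl), an endosomal cysteine protease, measured 600 TPM there, 38.8 TPM in the other 20h library and 24.6 to 100.0 TPM over the other 10 AM libraries. Ctsb measured 1262 TPM against 148 to 293 TPM, and Psap, the precursor of the saposins that present lipids to hydrolases, 1893 TPM against 431 to 1078 TPM. Lgmn reached 249 TPM against 40.1 to 142 TPM, and Grn, progranulin, 672 TPM against 229 to 306 TPM. Ctsk, at 125 TPM, and Ctsd, at 5013 TPM, lay within the range of the others. In all, 13 of 43 genes (30.2%) were above all 10 other AM libraries and 3 (6.98%) below, while 5.8% of all genes tested were above and 33.2% below. In this library the 8 IM markers summed to 887 TPM, against at most 34.4 TPM in any other AM library, and the AM markers to 1005 TPM, the lowest AM sum. The part of other macrophages in these values was not tested. With library P left out at 20h, this library stood alone and was assumed to vary like the other groups. Calls from that fit rest on the library singled out here, so they are not read as a rise.

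In IM the genes were lowest at 2h. There 21 of 43 had fallen and 0 had risen, beside 40.8% and 7.99% of all genes. At 6h 7 had fallen, beside 20.8% lower and 4.63% higher of all genes, and at 20h 4, beside 8.39% and 4.05%. The share of these genes that fell, 48.8% at 2h, 16.3% at 6h and 9.30% at 20h, was near the share of all genes at each time. Their median change was -1.15, -0.38 and 0.07, and that of all genes -0.79, -0.53 and -0.09. The 3 comparisons share the 0h libraries, and the IM libraries of 0h and ip share no title code.

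Of the 12 proteases 9 fell at 2h, of the 7 glycosidases 5, of the 5 V0 genes 2 and of the 6 V1 genes 0. The steepest was Tfeb, which measured 50.5 and 41.4 TPM at 0h, 4.23 and 7.92 TPM at 2h, 31.9 and 15.5 TPM at 6h, and 39.3 and 32.0 TPM at 20h. The 2h libraries lay below all others of IM. Its changes were -2.77 (SE 0.50, adjusted p = 0.000126) at 2h, -1.002 (adjusted p = 0.141) at 6h and -0.36 (adjusted p = 0.713) at 20h. Its relative Tfe3 measured 22.3 and 22.5 TPM at 0h, 18.8 and 30.5 TPM at 2h, 28.1 and 17.3 TPM at 6h, and 37.3 and 31.8 TPM at 20h, and passed the test at none (0.09, -0.02 and 0.60).

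Hexa measured 241 and 208 TPM at 0h, 24.8 and 55.2 TPM at 2h, 30.8 and 57.04 TPM at 6h, and 110 and 75.02 TPM at 20h. All IM libraries after LPS lay below both at 0h, and those at 20h above those at 2h and 6h. The change was -2.56 (SE 0.46, adjusted p = 0.000106) at 2h and -2.39 (SE 0.46, adjusted p = 0.00048) at 6h. Gaa measured 18.3 and 13.1 TPM at 0h, 2.10 and 2.47 TPM at 2h, 4.74 and 7.87 TPM at 6h, and 14.3 and 11.8 TPM at 20h, when it overlapped the untreated libraries. Its changes were -2.33 (SE 0.36, adjusted p = 2.71e-05) at 2h and -1.21 (SE 0.36, adjusted p = 0.0182) at 6h.

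Ctsf did not come back. It measured 9.70 and 8.68 TPM at 0h, 1.00 and 2.39 TPM at 2h, 0.342 and 0.453 TPM at 6h, and 0.391 and 0.673 TPM at 20h. Its changes were -1.97, -2.87 and -2.74 (SE 0.36 each, adjusted p of at most 0.000139), on a scale that understates the change of low genes. Ctsa, the carboxypeptidase that also protects lysosomal sialidase and β-galactosidase, measured 245 and 213 TPM at 0h, 41.6 and 84.5 TPM at 2h, 72.1 and 75.7 TPM at 6h, and 104 and 83.1 TPM at 20h. It stayed below its 0h libraries at all 3 times (-1.93, -1.62 and -1.29, adjusted p of at most 0.0232). Ctsk in IM at 6h split between 2.56 TPM in library A161219 and 74.1 TPM in library P, where the AM markers summed to 28.1 and 111 TPM. These markers did not move together. In the same order Car4 measured 7.54 and 40.9 TPM and F7 12.2 and 41.8 TPM, but Siglecf 1.34 and 0.622 TPM and Ear1 1.42 and 2.03 TPM. In IM library A161219 at 2h the AM markers summed to 118 TPM, with Ctsk at 7.33 TPM. The part of AM in these values was not tested. At 20h Ctsk measured 1.95 and 0.838 TPM and was called lower than at 0h (-2.54, SE 0.77, adjusted p = 0.0289).

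Ctsl measured 35.6 and 25.6 TPM at 0h, 1.06 and 13.2 TPM at 2h, 25.4 and 47.7 TPM at 6h, and 38.1 and 42.5 TPM at 20h, and it fell at 2h by 2.53 on the log2 scale (SE 0.90, adjusted p = 0.0234). Of its exon bases 26.8% overlap the antisense model Gm47123, it also overlaps the processed pseudogene Gm49230 on its own strand, and whether counting used strand is not stated. Ctsd fell from 796 and 613 TPM to 78.9 and 345 TPM at 2h (-2.07, SE 0.60, adjusted p = 0.00718), and stood at 537 and 773 TPM at 6h and 737 and 570 TPM at 20h. In both genes library P at 2h was by far the lower. Asah1 fell from 89.6 and 136 TPM to 8.22 and 39.7 TPM at 2h (-2.53, SE 0.67, adjusted p = 0.00343), and was at 108 and 107 TPM at 20h.

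Not all of the genes moved down with these. In IM at 2h Npc2 measured 187 and 292 TPM around its 0h values of 223 and 261 TPM, Lamp2 54.0 and 168 TPM around 65.4 and 69.8 TPM, and Atp6v0c 23.3 and 51.9 TPM above 15.4 and 18.0 TPM, and none of these passed the test. Npc2 fell later, to 102 and 98.5 TPM at 20h (-1.26, SE 0.38, adjusted p = 0.0299). Atp6v1e1, the most abundant V1 gene, measured 109 and 130 TPM at 0h and 78.6 and 185 TPM at 2h, with overlap.

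Several of these counts changed with the title code in the fit, with 1 library left out or with scaling. The shares of all genes called in these settings are not given here, so the changes are not read as results about the list. With the title code as a covariate, 6 genes fell in IM at 2h (Ctsa, Ctsf, Gaa, Glb1, Hexa and Tfeb), 1 at 6h and 1 at 20h, Ctsf both times. With the replicate block the counts were 4 (Ctsa, Gaa, Lgmn and Tfeb), 1 and 0. Without IM library P at 2h, 8 fell and 1 rose. At 20h 1 was called when any of the 4 IM libraries of 0h and 20h was left out. Quantile normalization changed the split to 4 higher and 5 lower at 6h and to 2 higher and 6 lower at 20h, and rescaling without Rn45s and Lars2 to 2 and 6, and to 3 and 6. Neutrophil markers, at 11176 and 22484 TPM in the IM libraries at 0h, summed to 17228 to 56844 TPM after LPS. Most of each sum was S100a8 and S100a9, which overlapped between 0h and LPS, as did Retnlg, Cxcr2 and Csf3r. Ngp measured 1.32 and 2.03 TPM at 0h and 516 to 1157 TPM after LPS. Camp was at 0 TPM at 0h and at 31.1 to 331 TPM after LPS. Ltf, Mmp8 and Ly6g were also higher in every IM library after LPS. IM markers were lowest at 2h and 6h. The part of neutrophils and of the IM markers in the falls was not tested.

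In iMo 7 genes had fallen at 2h, beside 24.0% lower and 8.41% higher of all genes, and 7 at 6h, beside 23.1% and 5.95%. At 20h 4 had fallen and 1 had risen, beside 14.8% and 7.39%. With 16.3%, 16.3% and 9.30% of the genes lower, each share was below that of all genes, and the members' medians of -0.48, -0.38 and -0.27 were near those of all genes at -0.42, -0.48 and -0.31. These 3 comparisons also share their 0h libraries, and no iMo library of 0h shares a title code with the later ones.

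Cathepsin H (Ctsh), an aminopeptidase of the papain family, measured 400 and 415 TPM at 0h, 122 and 111 TPM at 2h, 90.7 and 74.7 TPM at 6h, and 103 and 66.2 TPM at 20h. All 6 libraries after LPS lay below both at 0h. Its changes were -1.80, -2.29 and -2.29 (SE 0.43 each, adjusted p of at most 0.00247). Ctss measured 2311 and 2628 TPM at 0h, 822 and 993 TPM at 2h, 735 and 515 TPM at 6h, and 832 and 632 TPM at 20h. It too stayed below its untreated level (-1.45, -2.0003 and -1.76, SE 0.49 each, adjusted p of at most 0.0255).

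Npc2 fell stepwise, from 371 and 422 TPM to 220 and 338 TPM at 2h, 177 and 100.3 TPM at 6h and 89.8 and 74.0 TPM at 20h. The untreated libraries lay above all others, and those at 20h below all others. The change was -0.53 at 2h, where it did not pass the test, -1.56 (adjusted p = 0.00405) at 6h and -2.27 (SE 0.38, adjusted p = 0.000224) at 20h. Hexa fell from 215 and 227 TPM to 81.5 and 61.6 TPM at 2h and 52.4 and 50.6 TPM at 6h (-1.63 and -2.08, adjusted p of 0.00845 and 0.00165), and measured 92.8 and 106 TPM at 20h (-1.15, not called).

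Gaa moved the other way. It measured 5.37 and 5.74 TPM at 0h, 5.62 and 2.60 TPM at 2h, 11.4 and 5.83 TPM at 6h, and 20.6 and 18.2 TPM at 20h. Both 20h libraries lay above all other iMo libraries and inside the AM range of 17.6 to 30.4 TPM. Its rise at 20h was 1.63 (SE 0.36, adjusted p = 0.00274). Tfeb measured 52.8 and 46.0 TPM at 0h, 20.0 and 3.96 TPM at 2h, 25.1 and 18.6 TPM at 6h, and 29.6 and 28.3 TPM at 20h, and fell at 2h (-2.30, SE 0.50, adjusted p = 0.00128). Tfe3 measured 22.6 and 16.8 TPM at 0h and between 25.1 and 38.0 TPM after LPS, with no overlap, although its changes of 0.68, 0.55 and 0.60 did not pass the test (adjusted p from 0.151 to 0.257).

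Further genes that fell at 2h were Atp6v0b (-1.48), the β-glucuronidase Gusb (-1.38) and Mcoln1 (-1.18), at 6h Atp6v0b (-1.70), Ctsa (-1.36) and the α-mannosidase Man2b1 (-1.07), and at 20h Atp6v1d (-1.40). The counts that follow stand without the shares of all genes called, so they are not read as results about the list. With the title code as a covariate 1 gene fell at 2h (Tfeb), 0 at 6h and 1 at 20h (Npc2), and with the replicate block the counts were 0, 0 and 0. Without iMo library B161219 at 2h 1 gene was called at that time, and without iMo library A171227 or B171227 at 0h 3 were. At 6h 4 were called without iMo library A171227 of 0h and 3 without library B161219 of 6h, and at 20h 3 without either 0h library or without library B161219 of 20h. Scaling changed the split of the calls. After quantile normalization the split of higher and lower was 3 and 8 at 2h, 6 and 4 at 6h, and 4 and 3 at 20h, and after rescaling without Rn45s and Lars2 it was 3 and 6, 8 and 5, and 6 and 3. Over these times IM markers in iMo summed to 67.4 to 124 TPM at 2h and 6h and to 1541 to 1699 TPM at 20h, and their part in the values at 20h was not tested.

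**Figure D5:**
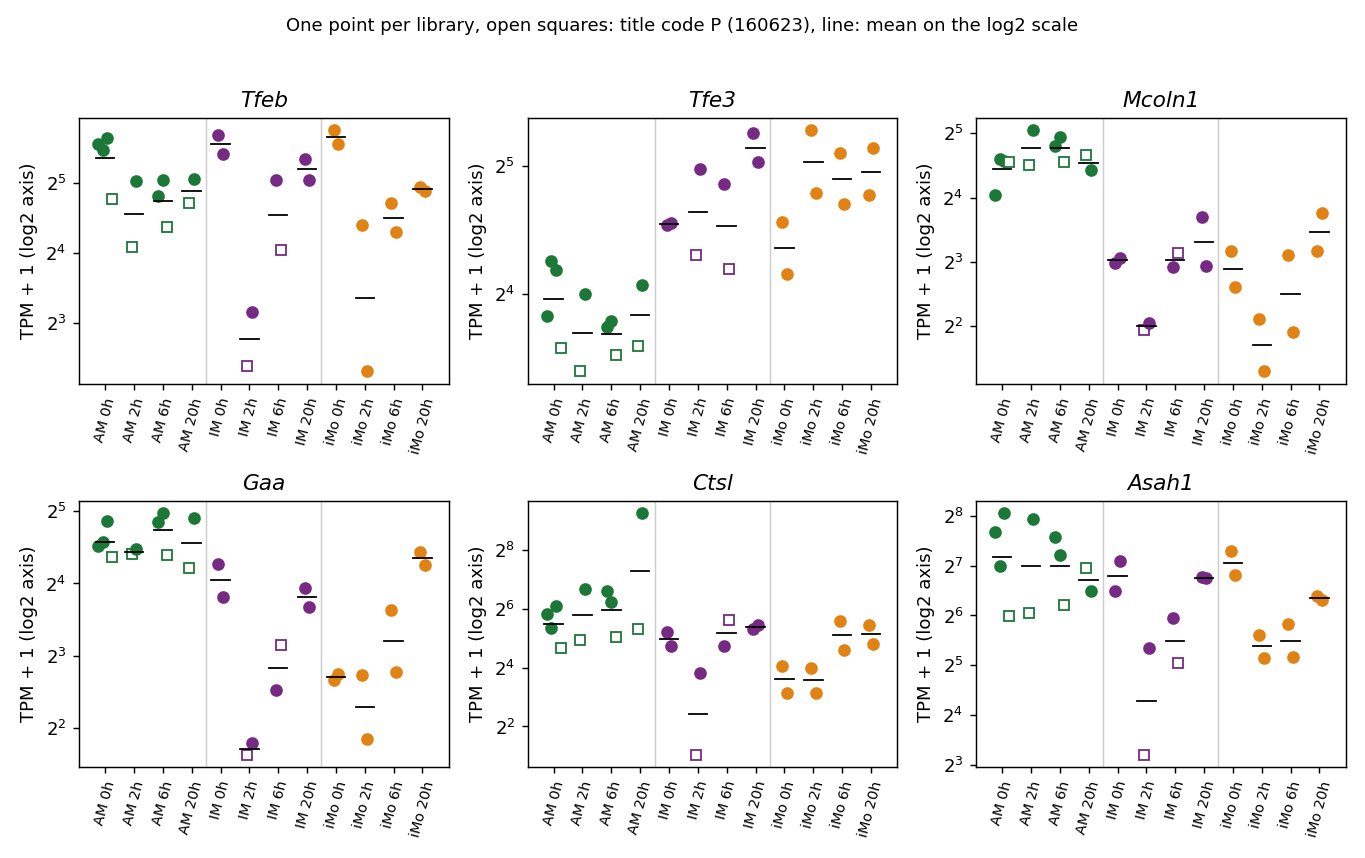
TPM + 1 (log2 axis) of Tfeb, Tfe3, Mcoln1, Gaa, Ctsl and Asah1, 1 point per library and 12 groups per panel, with open squares for title code P and a line at the mean on the log2 scale. Within IM, all but Tfe3 have their lowest mean at 2h, Gaa in iMo lies inside the AM range at 20h, and Ctsl is highest in 1 AM library at 20h.

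Between 2h and 20h, libraries of treated mice were compared with each other and title code Q was present at both times. In IM 14 genes were higher and 1 lower at 20h than at 2h, beside 31.8% and 7.17% of all genes, so the share of 32.6% higher was near the background. The members' median was 0.83 and that of all genes 0.65. Ctsl (2.93, SE 0.90, adjusted p = 0.0133), Asah1 (2.49, SE 0.67, adjusted p = 0.00557), Tfeb (2.42, SE 0.50, adjusted p = 0.000825), Gusb (2.22, SE 0.47, adjusted p = 0.000992) and Gaa (2.09, SE 0.36, adjusted p = 0.000168) led the higher genes. Tfe3 differed by 0.50 (adjusted p = 0.267). Npc2 was the lower one (-1.21, SE 0.38, adjusted p = 0.0157). The other higher genes were Ctsd, Lgmn, Tpp1, Npc1, Mcoln1, Glb1, Hexa, Atp6v0d1 and Atp6ap1. Of these Atp6v0d1, the d-subunit that joins V0 to the stalk of V1, measured 22.0 and 58.9 TPM at 2h and 155 and 119 TPM at 20h, with no overlap (1.88, SE 0.50, adjusted p = 0.00511). Within title code Q, 11 were higher and 3 lower. Without IM library P at 2h 7 were called, without library A161219 at 2h 23, and without library B161219 at 20h 5. Shares of all genes in these settings are not given here.

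In iMo 4 were higher and 1 lower at 20h than at 2h, beside 14.7% and 10.3% of all genes. Gaa (2.06, SE 0.36, adjusted p = 0.000228), Mcoln1 (1.76, SE 0.39, adjusted p = 0.00196), Tfeb (1.55, SE 0.50, adjusted p = 0.0252) and Gusb (1.47, SE 0.47, adjusted p = 0.0242) were higher and Npc2 (-1.73, SE 0.38, adjusted p = 0.00193) lower. Tfe3 differed by -0.08 (adjusted p = 0.899). Mcoln1 measured 3.34 and 1.46 TPM at 2h and 8.01 and 12.6 TPM at 20h. All iMo libraries of both times carried code Q, and a fit within that code called 8 higher and 2 lower. Without iMo library A161219 at 2h 8 were called, without B161219 at 2h 1, and without either 20h library 3, again without the shares of all genes. In AM 0 were called, beside 0% higher and 0.0224% lower of all genes, and limma gave 1 gene an unadjusted p under 0.05. The member with the largest difference there was Ctsl (1.48, SE 0.90, adjusted p = 0.915), with 29.4 and 100.0 TPM at 2h and 38.8 and 600 TPM at 20h. Tfeb and Tfe3 differed by 0.32 and 0.14.

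The difference between cell types in their change with LPS was tested over the 3 times together. Between IM and AM 6 genes differed, beside 26.5% of all genes, so 14.0% of the list was below the background. They were Ctsf (adjusted p = 0.000827), Gaa (0.00589), Hexa (0.0106), Glb1 (0.0116), Ctsa (0.0154) and Man2b1 (0.0444). Hexa changed by -2.56, -2.39 and -1.29 in IM, of which the last did not pass the test, and by 0.02, -0.27 and -0.02 in AM. Between iMo and AM 3 differed, beside 17.3% of all genes: Npc2 (0.0125), Gaa (0.0325) and Mcoln1 (0.0449). Mcoln1 changed by -1.18, -0.38 and 0.58 in iMo and by 0.33, 0.32 and 0.10 in AM. Between iMo and IM Ctsf alone differed (0.00527), beside 3.75% of all genes, with changes of 0.11, -0.17 and -0.39 in iMo, where it started near 0, and of -1.97, -2.87 and -2.74 in IM.

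These counts also moved with single libraries, and the shares of all genes called without each library are not given here. For IM against AM the count was 2 without IM library A171227 of 0h, 13 without AM library P of 2h and 11 without IM library A161219 of 2h. For iMo against AM it was 1 without either iMo library of 0h, AM library B161219 of 2h or iMo library B161219 of 2h. It was 5 without AM library P or iMo library A161219 of 2h, and 0 without iMo library B161219 of 20h. For iMo against IM it was 2 without IM library A161219 of 6h, iMo library B161219 of 2h or iMo library B161219 of 6h, and 3 without IM library P of 6h.

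Other genes of the pathway were taken as lists and counted in the same fit. The counts against AM after LPS stand beside 36.6% lower and 17.5% higher of all genes in IM, and 27.6% and 18.3% in iMo. Of 28 further hydrolases 25 were tested, and after LPS 20 were lower and 1 higher than AM in IM, and likewise 20 and 1 in iMo. Their medians were -1.26 and -0.92. The phospholipase Pla2g15 (-3.67 and -3.36), the acid lipase Lipa (-2.58 and -2.82) and the heparan sulfate hydrolase Naglu (-2.42 and -2.58) were among the lowest. In IM at 2h 19 of the 25 fell and 1 rose, beside 40.8% and 7.99% of all genes, led by the sphingomyelinase Smpd1 (-2.43). The acid phosphatase Acp5 went against them in iMo, rising by 2.88, 3.12 and 4.01 at the 3 times.

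Of 12 further pump genes 5 were tested. The numbers called among them are not given here, so the gene named next does not stand for the others. Atp6v0d2, the alternative d-subunit of V0, was far lower than in AM in both cells after LPS (-5.36 and -6.40) and at 0h (-4.84 and -7.30). Of 18 membrane and transport genes 17 were tested, of which 9 were lower and 1 higher in IM, and 10 lower and 2 higher in iMo. The calcium channel Mcoln3 (-4.20 and -4.28) was lower, and Slc11a1, which exports metal ions from the phagosome, higher (4.56 and 4.27). Among 6 genes for delivery of enzymes the sorting receptor Sort1 was lower in both (-4.07 and -4.28), with 3 lower and 1 higher in IM and 2 lower in iMo.

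Of 8 listed cathepsin inhibitors 5 were higher and 2 lower in IM than in AM after LPS, with Stfa2l1 (5.34) and Cst7 (2.67) higher and Serpinb6a (-3.63) lower. In iMo 1 was higher (Cst7, 2.98) and 2 lower (Serpinb6a, -4.45, and Cstb, -0.92). Stefin A genes such as Stfa2l1 are near-identical copies, so their reads may be split between them, and the IM libraries in which they were higher held neutrophil markers at 17228 to 56844 TPM after LPS. The part of neutrophils was not tested. Of 7 further genes of the TFEB family and its regulators 6 were tested, and 4 were lower in each cell. These included Mitf (-0.93 and -1.08) and Tfec (-1.53 and -0.92), 2 relatives of Tfeb, and Flcn (-0.95 and -0.81) and Rragc (-1.06 and -0.95), which act in the nutrient sensing that holds TFEB in the cytosol.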

How the data were processed

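The authors deposited 1 table of TPM (transcript abundance scaled to length and library) by gene symbol. STAR, HOMER and the mm10 build are listed in the submitters' processing notes without versions. Aligner settings, annotation and the handling of strand and multimapped reads are not stated. TPM keeps no depth, and the deposited TPM columns summed to 331473 to 551635, so no depth or counting interval is given. The 18 columns of the intranasal route were not used because their values did not match the row names (correlation with the other columns 0.0097 to 0.025, and Ctsd at a median of 0 against 737 TPM). Columns were matched to samples by title.

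The 27 remaining libraries were fitted in limma 3.58.1 (R 4.3.3) on log2(TPM + 1) with a mean-variance trend and 1 coefficient for each of 12 groups, over the 8937 genes that reached 5 TPM in 2 or more libraries. There were 18 contrasts and 3 F tests of response differences. Each was adjusted by Benjamini-Hochberg over all 8937 genes and called at an adjusted p under 0.05. Fold changes on this scale understate changes of low genes. "Rose", "fell", "higher" and "lower" refer to calls on values before the median of all genes is subtracted. The fit was tested on simulated data with 200 changed genes. The labels do not say that libraries came from separate animals, so p-values measure the spread between these libraries, which may be technical.

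Members, lists and tests were chosen with earlier results of these data known. Named in each comparison are up to 5 called members per direction with the largest change. Where none was called, the member with the largest change is given, and Tfeb and Tfe3 are always given. Library values are given for the most abundant member of each role and for members named in 3 or more comparisons. Other called members are listed after these. Alternatives were a pseudocount of 0.1 TPM, no filter, quantile normalization, rescaling without Rn45s and Lars2, the title code as a covariate, a replicate block on the title's letter and code, and leaving out each library. Same-numbered libraries were checked by correlating deviations from group means.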

Additional observations from a re-analysis of the deposited data

Results flagged for a closer look

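Among the 43 genes in the 4 untreated AM libraries, 2 had 1 library far from the other 3. Mcoln1 was low in library A171227, at 15.4 TPM against 22.5 to 23.3 TPM. Atp6v0c was high in library D171227, at 53.0 TPM against 19.8 to 21.8 TPM. Chance marks about 1 in 20 such groups, and 43 were examined.

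The change with LPS differed between cell types by a test of the difference itself (limma F test over 2h, 6h and 20h, adjusted over all genes) for 10 gene and cell type combinations. For IM against AM the adjusted p was 0.000827 for Ctsf, 0.00589 for Gaa, 0.0106 for Hexa, 0.0116 for Glb1, 0.0154 for Ctsa and 0.0444 for Man2b1. For iMo against AM it was 0.0125 for Npc2, 0.0325 for Gaa and 0.0449 for Mcoln1. For iMo against IM it was 0.00527 for Ctsf. The AM libraries enter the first 2 sets, and 0h and ip libraries of IM and iMo carry different title codes.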

How the results depend on the processing

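The values are numbers of the 43 genes called. Here and in the paragraphs above, counts under alternative settings stand without the share of all genes called. They are therefore not read against the background. Of 62 pairs of same-numbered libraries 28 deviated together at a correlation above 0.1 (lowest -0.21, median 0.0836, highest 0.618). They included 13 of the 15 pairs of code P (median 0.362), but 9 of 28 pairs of A161219 and 4 of 15 of B161219. In groups of 2 libraries the deviations mirror each other, so the pairs are not independent checks. For IM at 2h and 6h the correlation was 0.417 in both code P and A161219. As not every pair passed 0.1, the numbers were not taken to pair the samples. This check cannot exclude an effect shared by libraries of 1 number, which the main fit left out. With the replicate block the count was 7 for untreated iMo against AM, then 4, 1 and 0 for IM over the 3 times, 0, 0 and 0 for iMo, and 1 for iMo against IM after LPS. With the title code as a covariate it was 19 for untreated IM against AM, then 6, 1 and 1 for IM over the 3 times and 1, 0 and 1 for iMo, and 15 (IM) and 7 (iMo) for the difference in response from AM. Quantile normalization gave 22 (IM) and 24 (iMo) against untreated AM, 8 for IM at 20h, 11 for iMo at 2h, 10 for iMo at 20h against 2h, and 11 and 7 for the response differences from AM. Rescaling without Rn45s and Lars2 gave 21 and 25 at 0h, 9 for IM at 20h, 13 and 9 for iMo at 6h and 20h, 24 (IM) and 12 (iMo) at 20h against 2h, 13 for iMo against IM after LPS, and 14, 7 and 2 for the response differences of IM from AM, iMo from AM and iMo from IM. Without the filter it was 3 for iMo at 20h, 1 for iMo against IM after LPS and 1 for the response of iMo against AM. A pseudocount of 0.1 TPM gave 0 for the response of iMo against IM.

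Fits within a title code and at 20h alone were chosen after seeing the data. Within code R the untreated counts were 18 (IM against AM) and 4 (iMo against IM). Within code Q it was 10 for iMo at 20h against 2h and 5 for iMo against IM after LPS. At 20h alone it was 10 (IM against AM), 11 (iMo against AM) and 0 (iMo against IM), and the difference of Npc2 between IM and AM reversed to -0.20. The cause of these shifts was not tested.

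Leaving out 1 library gave 4 to 15 for IM against AM, 8 to 11 for iMo against AM and 1 to 2 for iMo against IM at 0h. Against 0h it gave 0 to 0, 0 to 0 and 0 to 3 for AM at 2h, 6h and 20h, 9 to 26, 5 to 8 and 1 to 1 for IM, and 1 to 7, 3 to 7 and 3 to 4 for iMo. At 20h against 2h it gave 0 to 1 (AM), 5 to 23 (IM) and 1 to 8 (iMo). After LPS it gave 24 to 30, 21 to 28 and 1 to 2 for IM against AM, iMo against AM and iMo against IM, and for the response differences 2 to 13, 0 to 5 and 1 to 3. With 2 libraries in most groups, a lone library was assumed to vary like the other groups.

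TPM holds no depth, so the precision of low genes such as Ctsf and Gla is unknown. Smart-seq2 libraries without molecular identifiers, overlapping gene models (Ctsd, Ctsl) and pseudogene copies (Atp6v0c) limit single values.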
